A study of Cavia porcellus with 13 samples.

Results

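ENSCPOG00000008260 is a guinea pig gene that carries an Ensembl identifier but no symbol in the deposited expression table. It is 1 of 26855 genes in that table, and it was chosen because its value was 0 in all 3 libraries of unbitten skin and high in all 10 libraries of tick-bitten skin. Its levels in bitten against naive skin are therefore a description, and no test of that difference is given. Neither the table nor the reference at hand gives it a name, a product or a position, so no function is attributed to it and no sequence is shown.

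The study profiled skin RNA of guinea pigs (Cavia porcellus) by sequencing, with every library labelled as taken on day 4 after a tick bite. The 10 bitten libraries were 2 of animals with 3 bites, 2 of animals with 2 bites, 3 of animals labelled saliva immune and 3 of animals at their first exposure. The 3 naive libraries carry the same day label, and the label naive is read here as skin without a bite. Breed, sex, age, tick species and the way in which the saliva immune animals were immunized are not given in the labels. The titles of the saliva immune and first exposure libraries and of naive replicates 1 and 2 begin with CK1, and those of the 3 bites and 2 bites libraries and of naive replicate 3 with EF19-5. The labels do not explain these prefixes, and they are treated here as a possible batch. The labels do not state whether each library is a different animal. The p-values below therefore reflect the spread between libraries, part of which may be technical.

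Guinea pigs are a classical model of acquired tick resistance, in which skin that has met ticks before rejects later ones, with basophils and mast cells as known participants. A bite site at this stage holds the feeding lesion, resident skin and recruited immune cells, and the biopsy is measured as a mixture. In such bulk samples, fewer cells of a type and less RNA per cell cannot be told apart. Values are TPM, which divide reads by gene length and scale each library to the same total of 1000000, so levels can be compared between genes. TPM keep no record of read depth, and the depth behind each value is unknown. All libraries held markers of skin. The basal keratinocyte keratin KRT14 lay between 7503 and 14039 TPM in bitten and between 4287 and 8013 TPM in naive libraries, and the collagen chain COL1A1 between 689 and 2837 TPM in bitten and between 716 and 5316 TPM in naive libraries. Between 13270 and 14391 genes reached 1 TPM in each library, and no 2 libraries were identical.

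In bitten skin, ENSCPOG00000008260 was an abundant transcript. The 3 bites libraries held 722 and 504 TPM and the 2 bites libraries 1365 and 1159 TPM. The saliva immune libraries held 422, 422 and 509 TPM, and the first exposure libraries 455, 569 and 498 TPM. Naive replicates 1, 2 and 3 were all listed at 0. Both 2 bites libraries lay above all other libraries, the saliva immune and first exposure libraries overlapped each other, and 1 of the 2 libraries of 3 bites skin lay within the range of first exposure skin. In a table without counts, a listed 0 can be a failed estimate as well as an absence of reads, and these values do not tell which applies here. For that reason no fold change is given for bitten over naive skin.

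**Figure D1:**
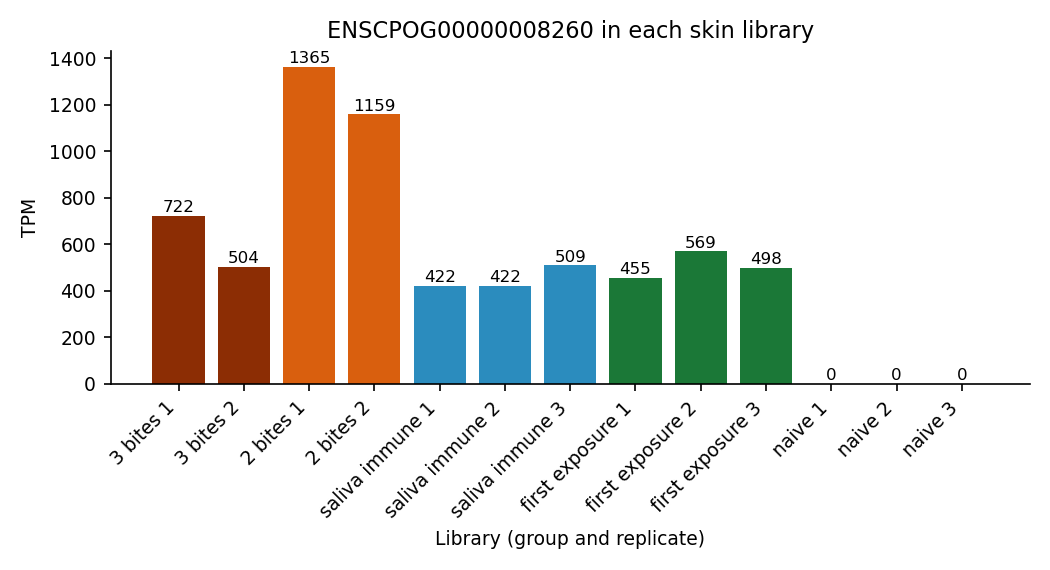
TPM of ENSCPOG00000008260 in each of the 13 libraries, with 1 bar per library and the value above it. The 2 bites libraries stand at 1365 and 1159, the other 8 bitten libraries between 422 and 722, and the 3 naive libraries at 0.

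The group means were 613 ± 154 TPM in 3 bites (SD, n = 2), 1262 ± 146 in 2 bites (SD, n = 2), 451 ± 50.2 in saliva immune (SD, n = 3) and 507 ± 57.8 TPM in first exposure skin (SD, n = 3). From the highest to the lowest, the order was 2 bites, 3 bites, first exposure and saliva immune. The libraries of a group lay close together, with a coefficient of variation of 25.2% in 3 bites, 11.6% in 2 bites, 11.1% in saliva immune and 11.4% in first exposure skin. On the log2(TPM + 1) scale, the spread within bitten groups was 0.21 (pooled SD, 6 residual degrees of freedom). Of 281 other genes with 0.5 to 2 times its mean TPM in bitten skin, 68% had a larger spread within groups, and the median of those genes was 0.28. Its range over the 10 bitten libraries was 1.69 on that scale, against a median range of 1.17 for the same 281 genes, of which 33.8% had a larger range.

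The gene ranked among the most abundant transcripts of every bitten library. It held rank 203 and 268 in 3 bites, 108 and 138 in 2 bites, 325, 321 and 265 in saliva immune and 289, 247 and 268 in first exposure libraries, counted from the gene with the highest TPM. The 2 bites libraries thus had the highest ranks, within the top 0.663% and 0.852% of the genes listed above 0, and saliva immune replicate 2 the lowest percentage position at 1.96%. As a share of all transcripts it made up 0.0422% (saliva immune replicates 1 and 2) to 0.137% (2 bites replicate 1) of a library.

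**Figure D2:**
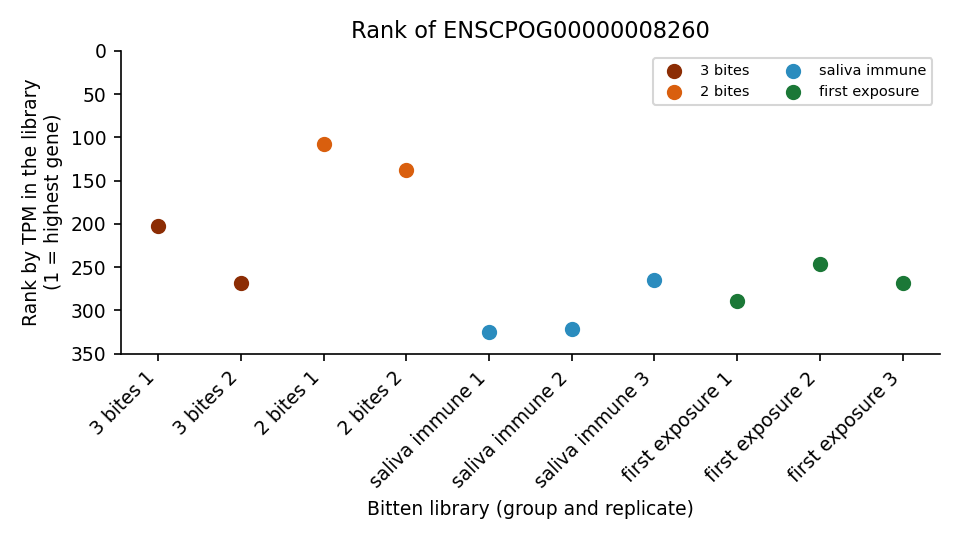
Rank of ENSCPOG00000008260 by TPM in each of the 10 bitten libraries, with rank 1 at the top for the gene of highest TPM and 1 point per library. The 2 bites libraries hold ranks 108 and 138, and the other 8 lie between 203 and 325.

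Named genes of the same libraries give a scale for these levels. By mean TPM in bitten skin, ENSCPOG00000008260 (663 ± 331, SD, n = 10) stood between SERBP1, an mRNA-binding protein, at 663 ± 152 TPM and S100A3, a calcium-binding protein of the hair cuticle, at 661 ± 394 TPM. Both of these were also present in naive skin, SERBP1 at 720 ± 77.0 TPM and S100A3 at 486 ± 205 TPM (SD, n = 3). It lay below the cytoskeletal actin Actb in all 10 bitten libraries, at 0.198 to 0.443 times the TPM of Actb, and below KRT14 in all 10, at 0.046 to 0.102 times. It lay above the macrophage lysosomal protein CD68 in 10 of 10 bitten libraries, at 4.79 to 13.6 times the TPM of CD68. It also lay above the skin kallikrein protease KLK13 in 10 of 10, at 9.73 to 29.9 times. Against the neutrophil calprotectin subunit S100A9 it was higher in 6 of 10 bitten libraries, and against COL1A2, a type I collagen chain, in 4 of 10.

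A value of 0 in all naive libraries was common among low genes and rare among abundant ones. Of the 26855 genes, 9719 were listed at 0 in all 3 naive libraries, and 8085 of these were at 0 in all 13. Above 0 in all 3 naive and at 0 in all 10 bitten libraries were 0 genes. That pattern is the stricter, since it needs a 0 in 10 libraries. The reverse, at 0 in all 3 naive libraries and above 0 in all 10 bitten libraries, held for only 7 genes. In the other 6, the highest value in any bitten library was 11.4 TPM. CCL17, a chemokine that attracts T cells through the receptor CCR4, had 6.81 and 2.68 TPM in 3 bites, 11.4 and 1.81 in 2 bites, 2.12, 3.35 and 9.32 in saliva immune and 3.23, 2.52 and 9.26 TPM in first exposure skin. CSF3R, the receptor of the neutrophil growth factor G-CSF, had between 0.0851 TPM in first exposure replicate 1 and 3.48 TPM in 2 bites replicate 1. CCDC170, a coiled-coil protein, had between 0.0971 TPM in 3 bites replicate 2 and 2.27 TPM in 2 bites replicate 1. The remaining 3 have no symbol, and ENSCPOG00000036317 among them had 1.05 to 2.19 TPM in bitten skin. Over the 10 bitten libraries, Pearson's r of log2(TPM + 1) with ENSCPOG00000008260 was 0.25 for CCL17, 0.74 for CSF3R, 0.85 for CCDC170 and -0.20 for ENSCPOG00000036317, given as a description.

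Among abundant genes the pattern stood alone in this table. The counts here use the values that chose the gene, so they describe that choice and give it no separate support. Of 890 genes with at least 100 TPM in all 10 bitten libraries, 1, ENSCPOG00000008260, was listed at 0 in any naive library, and the same gene was the 1 that lay below 10 TPM in all 3. The next gene with a symbol in order of the highest naive over the lowest bitten value was RBM3, a cold-inducible RNA-binding protein, with at least 311 TPM in bitten and at most 265 TPM in naive libraries, a ratio of 0.854. No gene with at least 100 TPM in all 3 naive libraries was at 0 in any bitten library. In the whole table, 2378 genes reached 100 TPM in 1 or more libraries, and 8 of them were at 0 in another. In the other 7 of these 8, the bitten libraries also differed widely among themselves, and each had a bitten library listed at 0 or at no more than 1.51 TPM. For comparison, of all 26855 genes, bitten and naive libraries did not overlap for 165 with bitten skin higher and 45 with naive skin higher. How many would separate by chance with 10 against 3 libraries was not computed.

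**Figure D3:**
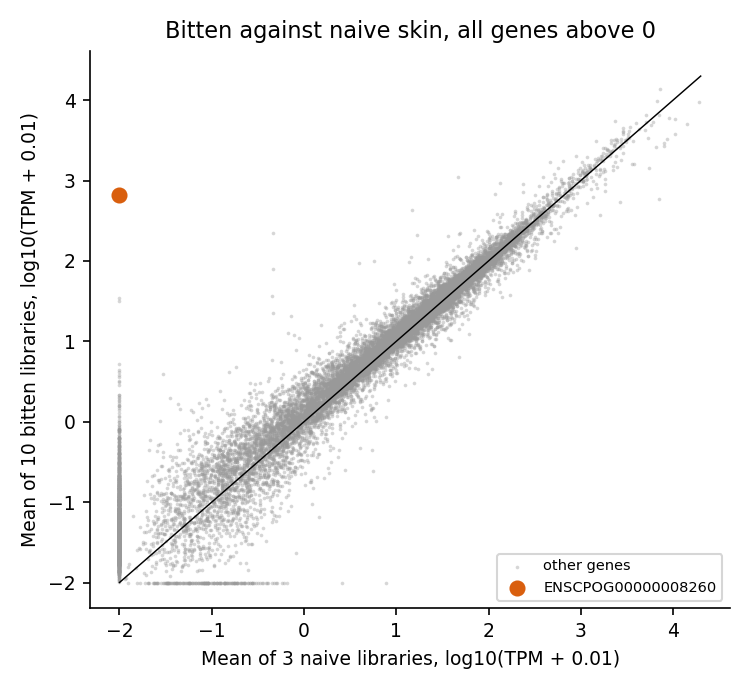
Mean of the 10 bitten libraries against the mean of the 3 naive libraries for each gene above 0, both as log10(TPM + 0.01), with the diagonal marking equal levels. ENSCPOG00000008260 lies at the left edge, at 0 in naive and 663 TPM in bitten skin, away from the other genes listed at 0 in naive skin.

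The bitten groups were then compared with each other, a contrast that did not serve to choose the gene. The gene and the tests were still chosen with earlier results of these data known, so the p-values may not be independent of that knowledge. The tests used limma on log2(TPM + 1) over the 10 bitten libraries and 14867 genes, two-sided, with Benjamini-Hochberg adjustment over all of them and a threshold of 0.05. Naive libraries stayed out of that fit, because a gene picked for being 0 there has no spread there.

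Repeat exposure was first looked at within the EF19-5 libraries, where animals with 3 bites stand against animals with 2. ENSCPOG00000008260 had 722 and 504 TPM in 3 bites skin, against 1365 and 1159 TPM in 2 bites skin, and the libraries did not overlap. The difference was -1.06 in log2(TPM + 1) (SE 0.221, 95% interval -1.56 to -0.56), a level in 3 bites skin 0.48 times that in 2 bites skin. It had an unadjusted limma p of 0.000952, rank 28 among all genes, but did not pass after adjustment (limma adjusted p = 0.418). In that comparison limma called 0% of genes (0 of 14867), with 1517 at an unadjusted p under 0.05, and 3.81% of genes had a larger difference in size. The median difference over all genes was 0.14. Of 14 marker lists, 5 differed between the same libraries without overlap, all lower in 3 bites skin. In groups this small, lists can separate by chance. The share of all genes that separate was not computed, here or in the next comparisons between bitten groups. Mast cell and basophil markers (7 of 10 in the table) summed to 0.00197% and 0.00279% of TPM in 3 bites and 0.00318% and 0.00385% in 2 bites libraries, T cell markers (10 of 11) to 0.00107% and 0.00139% and to 0.00154% and 0.00314%, B cell and plasma cell markers (11 of 11) to 0.0189% and 0.0247% and to 0.026% and 0.0407%, and sebocyte markers (5 of 7) to 0.00766% and 0.0085% and to 0.00888% and 0.0125%. Erythroid markers (2 of 5) summed to 7.08e-05% and 0.000108% in 3 bites and 0.000204% and 0.00029% in 2 bites libraries. The keratinocyte, fibroblast, skeletal muscle, hair follicle, adipocyte, neutrophil, macrophage, eosinophil and endothelial lists overlapped between these groups. The part of these markers in the result was not tested.

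The saliva immune state was looked at within the CK1 libraries. ENSCPOG00000008260 had 422, 422 and 509 TPM in saliva immune skin, against 455, 569 and 498 TPM in first exposure skin. The ranges overlapped. The difference was -0.17 in log2(TPM + 1) (SE 0.181, 95% interval -0.58 to 0.24, limma adjusted p = 1), so that levels in saliva immune skin between 0.671 and 1.18 times those in first exposure skin lie within the interval. Here limma called 0% of genes (0 of 14867), with 340 at an unadjusted p under 0.05. Of the 14 marker lists, the mast cell and basophil list was the 1 that did not overlap, with 0.00187%, 0.00204% and 0.0026% of TPM in saliva immune libraries, against 0.00138%, 0.00135% and 0.00155% in first exposure libraries. The sum of skeletal muscle markers (9 of 12 in the table) ranged from 1.29% to 5.36% of TPM in saliva immune and from 2.44% to 3.63% in first exposure libraries. The part of these markers in the values of ENSCPOG00000008260 was not tested.

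Between repeat bites and a first exposure, groups and title prefixes coincide, so an effect of the exposure and an effect of the prefix cannot be told apart. ENSCPOG00000008260 had 1365 and 1159 TPM in 2 bites skin, against 455, 569 and 498 TPM in first exposure skin, without overlap. It was higher by 1.31 in log2(TPM + 1) (SE 0.202, 95% interval 0.86 to 1.77), 2.49 times, with a limma adjusted p of 0.0262, and both 2 bites libraries showed the direction. limma called 4.36% of genes in that comparison (648 of 14867), 229 higher (1.54%) and 419 lower (2.82%), and median-of-ratios scaling turned that split to 629 higher and 474 lower. The call was lost without single libraries, with limma adjusted p of 0.1, 0.0635 and 0.0871 without first exposure replicate 1, 2 or 3, and of 0.213 and 0.0681 without 2 bites replicate 1 or 2. The count of all genes called also moved, to 7, 0 and 6 without first exposure replicate 1, 2 or 3, to 5 and 4 without 2 bites replicate 1 or 2, and to 180 and 2022 without saliva immune replicate 1 or 3. With all 13 libraries and the prefix as a term the difference was again 1.31, with a limma adjusted p of 0.943. In that model the prefix is estimated from naive skin, where this gene is 0 in every library.

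Of the 14 marker lists, 7 also separated 2 bites from first exposure libraries without overlap. Higher in 2 bites skin were keratinocyte markers (5 of 10 in the table; 4.97% and 3.38% of TPM in 2 bites, against 1.73% to 2.73% in first exposure libraries), fibroblast markers (6 of 6; 0.719% and 0.435%, against 0.169% to 0.299%) and macrophage markers (11 of 11; 0.11% and 0.0461%, against 0.024% to 0.0272%). Mast cell and basophil markers were also higher, at 0.00385% and 0.00318% in 2 bites and 0.00135% to 0.00155% in first exposure libraries, as were eosinophil markers, at 1.51e-05% and 4.13e-05% in 2 bites and 0 to 1.16e-05% in first exposure libraries. Lower in 2 bites skin were skeletal muscle markers, at 0.317% and 0.434% in 2 bites and 2.44% to 3.63% in first exposure libraries, and adipocyte markers (7 of 7), at 0.199% and 0.183% in 2 bites and 0.25% to 0.731% in first exposure libraries. In the keratinocyte list, KRT1 had 30577 and 17566 TPM in 2 bites, against 4815 to 9375 TPM in first exposure libraries. KRT14 had 14039 and 11327 TPM, against 8031 to 11212 TPM, and KRT5 overlapped between these groups. Of the eosinophil list, 3 of 6 markers were in the table, and 0 of them reached 1 TPM in at least 2 libraries. The eosinophil sums thus lie near the floor. The part of these markers in the difference of ENSCPOG00000008260 was not tested.

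Skin with 3 bites and skin at a first exposure were closer. ENSCPOG00000008260 had 722 and 504 TPM in 3 bites skin, against 455, 569 and 498 TPM in first exposure skin, and the libraries overlapped. The difference was 0.26 in log2(TPM + 1) (SE 0.202, 95% interval -0.20 to 0.71, limma adjusted p = 0.445), in a comparison that called 0.195% of genes (29 of 14867). Its size rested on single libraries, at 0.00 without 3 bites replicate 1 and 0.52 without 3 bites replicate 2, and it was 0.07 with median-of-ratios scaling. The count of genes called was 0 without first exposure replicate 1 or 2 or saliva immune replicate 1, 1 without first exposure replicate 3 or 3 bites replicate 1, 8 and 6 without 2 bites replicate 1 or 2, and 473 and 1818 without saliva immune replicate 2 or 3. Here too 7 of the 14 marker lists did not overlap. Keratinocyte markers took 3.59% and 4.47% of TPM in 3 bites and 1.73% to 2.73% in first exposure libraries, fibroblast markers 0.843% and 0.307% against 0.169% to 0.299%, and mast cell and basophil markers 0.00279% and 0.00197% against 0.00135% to 0.00155%. Skeletal muscle markers, at 0.745% and 0.378% in 3 bites and 2.44% to 3.63% in first exposure libraries, were lower in 3 bites skin, as were the sebocyte, B cell and plasma cell and erythroid lists. Of the keratinocyte markers, KRT1 had 21951 and 26931 TPM in 3 bites, against 4815 to 9375 TPM in first exposure libraries. KRT5 and KRT14 overlapped between these groups. The part of these markers was not tested. Among neighbours in the order of levels, then, 2 bites and 3 bites did not overlap but missed the adjusted threshold, and 3 bites with first exposure and first exposure with saliva immune overlapped.

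**Figure D4:**
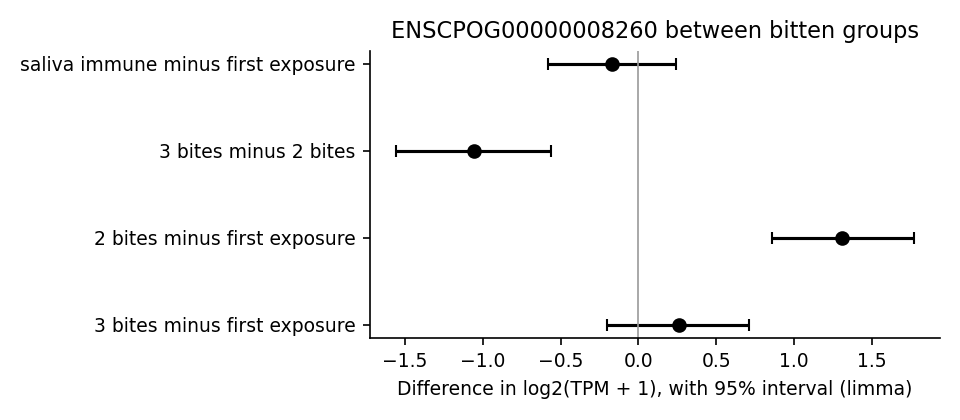
Difference of ENSCPOG00000008260 in log2(TPM + 1) between bitten groups, with points for the limma estimate and bars for its 95% interval. The intervals for 3 bites minus 2 bites (-1.56 to -0.56) and 2 bites minus first exposure (0.86 to 1.77) do not reach 0, and the other pair span it.

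Genes whose level followed ENSCPOG00000008260 across the 10 bitten libraries were ranked by Pearson's r of log2(TPM + 1) among 14089 other genes with a mean of at least 1 TPM there. The values are likenesses picked from many genes, on libraries that share their composition and with 2 bites skin standing apart, and they carry no test. Of these genes, 62 had an r of at least 0.9, 44 of them with a symbol, and 84 had an r of -0.9 or less, while the median over all genes was 0.04. Without both 2 bites libraries, 61 of the 62 had an r of at least 0.5 over the remaining 8. The median was 0.70, and 1 had an r of at least 0.9. These 8 libraries also served to pick the 62, and the share of all genes with such an r was not computed. The count of 62 was 94 without saliva immune replicate 3, 16 and 115 without 2 bites replicate 1 or 2, and 94 and 267 without 3 bites replicate 1 or 2.

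The closest of all had no symbol either. ENSCPOG00000035807 (r = 0.98, and 0.93 over the 8 libraries without 2 bites) averaged 2.57 TPM in 3 bites, 8.15 in 2 bites, 1.12 in saliva immune, 1.53 in first exposure and 1.13 TPM in naive skin. Among genes with a symbol, CTNNBIP1, which keeps beta-catenin from its transcription partners, came first (r = 0.97). It averaged 19.1 TPM in 3 bites, 35.1 in 2 bites, 14.2 in saliva immune, 14.9 in first exposure and 11.6 TPM in naive skin. MEA1 (r = 0.97) averaged 123, 163, 102 and 102 TPM in 3 bites, 2 bites, saliva immune and first exposure skin, and 105 TPM in naive skin. A gene listed as MIR214, the name of a microRNA locus, followed with an r of 0.96 and means of 2.86 TPM in 3 bites, 12.2 in 2 bites, 2.65 in saliva immune, 2.31 in first exposure and 1.60 TPM in naive skin. All 4 were highest in 2 bites skin, as the choice by likeness requires, and all 4 were above 0 in naive skin.

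The next named genes included some at a similar level. PFN1, the actin-binding protein profilin (r = 0.95), averaged 938 TPM in 3 bites, 1323 in 2 bites, 836 in saliva immune, 808 in first exposure and 734 TPM in naive skin. Fabp5, the epidermal fatty acid-binding protein (r = 0.94), averaged 1143 TPM in 3 bites, 2185 in 2 bites, 925 in saliva immune, 845 in first exposure and 821 TPM in naive skin. ARHGAP25, MAD2L1BP, a partner of the spindle checkpoint protein MAD2, and TEKT1, a tektin of ciliary microtubules, each had an r of 0.94. The mean in 2 bites skin over the mean of the other 8 bitten libraries was 2.46 for ENSCPOG00000008260. It was 2.24 for CTNNBIP1, 2.30 for Fabp5 and 2.47 for ARHGAP25, lower for PFN1 (1.55), MEA1 (1.52) and MAD2L1BP (1.65), and higher for MIR214 (4.73) and TEKT1 (4.76).

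The likeness held unevenly inside the CK1 libraries, where the level varied little. Over those 6 libraries r was 0.91 for MAD2L1BP and 0.71 for MEA1, but 0.43 for CTNNBIP1, 0.49 for MIR214, 0.30 for PFN1, 0.22 for ARHGAP25, 0.20 for TEKT1 and -0.36 for Fabp5. Over the 8 libraries without 2 bites r was 0.87 for MAD2L1BP, 0.86 for CTNNBIP1, 0.83 for MEA1, 0.75 for ARHGAP25, 0.71 for PFN1, 0.65 for MIR214, 0.61 for Fabp5 and 0.59 for TEKT1. By Spearman's rank correlation over all 10, these 8 genes lay between 0.61 (Fabp5) and 0.95 (MAD2L1BP). After the mean of each title prefix was taken off, the named genes with the highest r were NFKBIE, an inhibitor of NF-kappaB (0.96), MIR214 (0.94), CNN2, the actin-binding calponin 2 (0.94), PPIF, the mitochondrial cyclophilin (0.93), and CTNNBIP1 (0.93). NFKBIE averaged 5.62 TPM in 3 bites, 11.1 in 2 bites, 7.75 in saliva immune, 8.33 in first exposure and 4.61 TPM in naive skin, and its r without the prefix step was 0.62.

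Genes that ran opposite were lowest where ENSCPOG00000008260 was highest. AMACR, a racemase of branched-chain fatty acid breakdown, had the lowest r (-0.97) and kept it over the 8 libraries without 2 bites (-0.96) and over the 6 CK1 libraries (-0.90), but it was -0.73 with median-of-ratios scaling, where those of ZC3H6, SOX6 and HEXD were -0.91, -0.90 and -0.91. It averaged 22.8 TPM in 3 bites, 16.9 in 2 bites, 27.8 in saliva immune, 25.2 in first exposure and 26.1 TPM in naive skin. The zinc finger gene ZC3H6 (r = -0.97) averaged 7.94, 3.23, 8.92 and 7.60 TPM in 3 bites, 2 bites, saliva immune and first exposure skin, and 7.40 TPM in naive skin. SOX6, a transcription factor of muscle fibre and cartilage development (r = -0.96), averaged 13.4 TPM in 3 bites, 3.50 in 2 bites, 16.9 in saliva immune, 12.9 in first exposure and 21.6 TPM in naive skin. HEXD, a hexosaminidase (r = -0.96), averaged 4.79 TPM in 3 bites, 2.22 in 2 bites, 5.62 in saliva immune, 5.20 in first exposure and 4.98 TPM in naive skin. The skeletal muscle share given above was also lower in the EF19-5 bitten libraries than in the CK1 bitten ones, and its part in these likenesses was not tested.

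**Figure D5:**
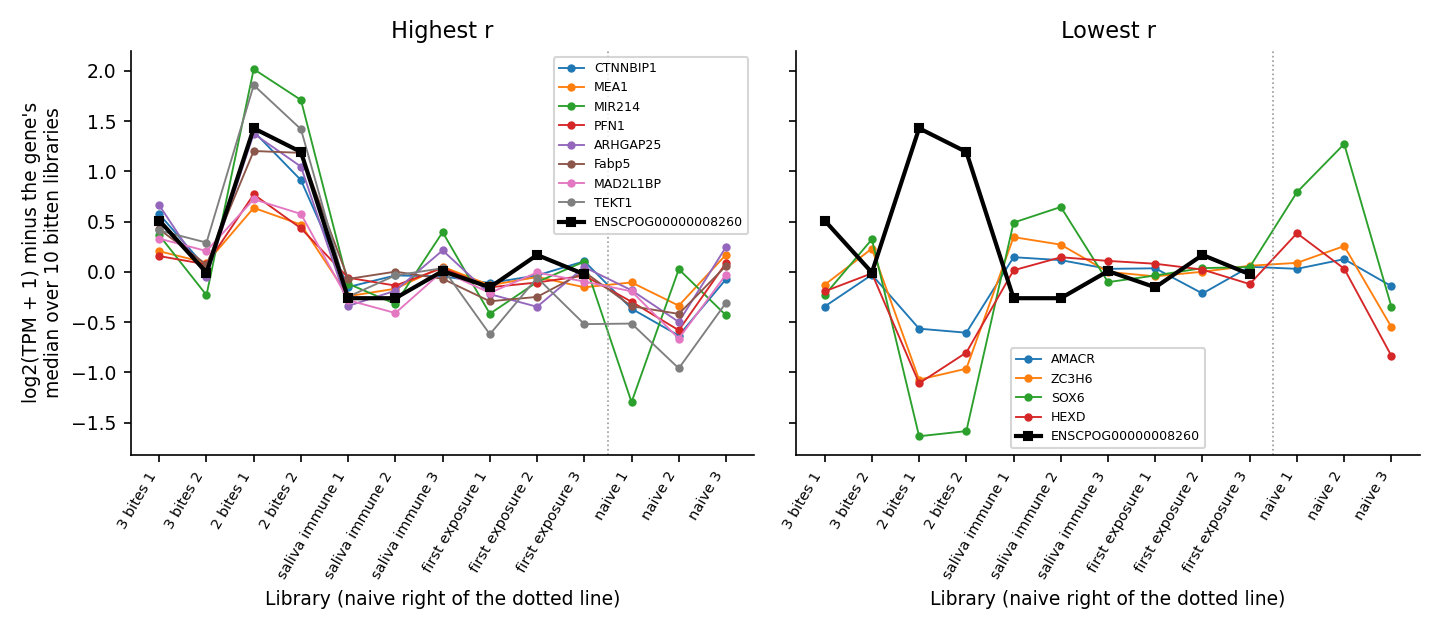
log2(TPM + 1) of the 8 named genes with the highest r (left) and the 4 with the lowest (right), each relative to its own median over the 10 bitten libraries, with ENSCPOG00000008260 in black and naive libraries right of the dotted line. The genes with the highest r peak in the 2 bites libraries and stay above 0 in naive skin, where ENSCPOG00000008260 is listed at 0 and is not drawn.

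None of the genes that followed it in bitten skin shared its 0 in naive skin. Of the 62 genes with an r of at least 0.9, 0 were listed at 0 in any naive library. Their mean in bitten skin was 0.743 to 3.47 times their mean in naive skin, with a median of 1.32, against a median of 1.09 over the 14089 genes compared. Likewise, 0 of the 281 genes with 0.5 to 2 times its bitten mean were at 0 in any naive library. Their median ratio of naive to bitten mean was 0.936. In the whole table, 3 genes, ENSCPOG00000008260 among them, were at 0 in all 3 naive libraries and averaged at least 10 TPM in bitten skin. How many of the 14089 genes compared were at 0 in naive skin was not counted. Of the 890 genes with at least 100 TPM in all 10 bitten libraries, ENSCPOG00000008260 was the only 1 at 0 in any naive library. The counts of 0 may therefore hold for most sets of genes, and they are not read as a trait of these sets.

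Markers of immune cells were set beside the gene in bitten and naive skin, and the sums of all lists but the eosinophil one were above 0 in naive libraries. Summed macrophage markers (11 of 11 in the table) took 0.0146% to 0.11% of TPM in the bitten libraries and 0.0114% to 0.0274% in naive ones, and neutrophil markers (8 of 10, with MPO at 0 in every library) 0.0209% to 0.225% in bitten and 0.00851% to 0.0175% in naive libraries. The neutrophil sum was mostly S100A9, at 171 to 2231 TPM in bitten and 80.8 to 159 TPM in naive libraries. CSF3R, on the same list, was at 0 in all 3 naive libraries. Mast cell and basophil markers took 0.00135% to 0.00385% in bitten and 0.000851% to 0.00124% in naive libraries, without overlap. Eosinophil markers (3 of 6 in the table, EPX at 0 in every library) were at 0 in all 3 naive libraries, and also at 0 in first exposure replicate 1 and 3 bites replicate 2, where ENSCPOG00000008260 stood at 455 and 504 TPM. The part of any of these cells in the level of ENSCPOG00000008260 was not tested.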

How the data were processed

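The authors deposited TPM for each gene and library, and every column adds up to 1000000. Per the submitters' processing notes the tools were Trimmomatic, StringTie and DESeq, with neither version nor task stated. The sources used here name no aligner, genome build or annotation. In the RefSeq table at hand, 0 of 37416 genes carry an Ensembl identifier, so ENSCPOG00000008260 could not be matched to it.

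The gene, the marker lists and the tests were chosen with earlier results of these data known. Genes entered the fits with at least 1 TPM in at least 2 of the 10 bitten libraries. Differences in log2(TPM + 1), which understate the change of low genes, were tested with limma 3.58.1 in R 4.3.3, with 4 groups and an intensity trend, and checked on simulated data. There, a set difference of 1 in log2 was called for 26.9% of changed genes in 3 bites minus 2 bites and 23.9% in 2 bites minus first exposure. It was 29.9% in 3 bites minus first exposure and 43.3% in saliva immune minus first exposure. Differences of that size were thus mostly missed. No TPM interval for counting error can be given, since depth is unknown. Pearson's r was computed in Python 3.11.15 over the bitten libraries. Named genes are the 8 with a symbol and the highest r, the 4 with the lowest, the 5 highest after the mean of each prefix was taken off, up to 2 without a symbol each way, the genes at 0 in all naive and above 0 in all bitten libraries, and fixed yardsticks of level, of which EEF1A1 and S100A8 were not found by symbol. Alternatives were the pseudocount, the filter, median-of-ratios scaling, all 13 libraries with the prefix, only the groups compared, no trend and leaving out each bitten library. Leaving out both 2 bites libraries, and the CK1 libraries alone, were added after seeing the data.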

Additional observations from a re-analysis of the deposited data

How the results depend on the processing

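The direction and side of the threshold of ENSCPOG00000008260 held in all 17 alternatives for saliva immune minus first exposure and for 3 bites minus 2 bites (limma adjusted p from 0.526 to 1 and from 0.204 to 0.989), and no alternative called it for 3 bites minus first exposure (0.362 to 1). For 2 bites minus first exposure it was no longer called without the filter on low values (difference 1.31, limma adjusted p = 0.0519) or with all 13 libraries and the prefix (1.31, 0.943), and without single libraries the difference lay between 1.2 and 1.43. The fit with all 13 libraries brings in the naive values that chose the gene. It leaves differences within a prefix unchanged by design, so it is no separate check of them. Counts of all genes called moved more. For 3 bites minus 2 bites, 1 was called with a pseudocount of 10, 12 without the filter and 0 to 3 without single libraries (3 without 3 bites replicate 2, 2 without 2 bites replicate 2). For 2 bites minus first exposure the count was 400 with a pseudocount of 10, 141 without the filter, 1103 with median-of-ratios scaling, 0 with all 13 libraries, 1826 with only the groups compared and 0 to 2022 without single libraries, against 648. For 3 bites minus first exposure it was 3, 13, 103, 0 and 1092 in the same order, 1 without the trend and 0 to 1818 without single libraries, against 29. Genes with a likeness of at least 0.9 numbered 62. The count was 120 by Spearman's rank correlation, 15 with prefix means taken off and 105 with median-of-ratios scaling. It was 16 to 267 without single libraries, 22 without both 2 bites libraries and 419 over the 6 CK1 libraries. The cause of these changes was not tested. No paired analysis was possible because the labels give no replicate numbers that groups share. Depth is unknown, so the smallest TPM that could have been seen in naive skin is unknown.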

Other observations

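Within the 281 genes of 0.5 to 2 times its bitten mean, the gene with the next lowest naive over bitten level was ENSCPOG00000031895, also without a symbol and named after its values were seen. It had 334 and 174 TPM in 3 bites, 1744 and 823 in 2 bites, 530, 322 and 20.0 in saliva immune and 7.13, 64.1 and 316 TPM in first exposure skin, against 5.32, 1.73 and 37.4 TPM in naive skin. Its bitten and naive libraries overlapped, and its levels within saliva immune and first exposure skin were spread far more widely than those of ENSCPOG00000008260, which lay between 422 and 569 TPM in the same 6 libraries.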
